A study of Aspergillus niger with 6 samples.

Results

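The 84 genes described here had higher transcript levels in Aspergillus niger mycelium on willow wood than in mycelium grown on glucose, and stayed at a similar level after glucose was added back. They were chosen from 14114 genes with an An identifier (of 15431 genes listed) by their CPM values (read counts relative to the library size, which TMM factors from edgeR adjust). In a member, each of the 4 willow and glucose-added libraries had at least 15 CPM and at least 2 times the higher value of the glucose libraries, and the means of the willow and glucose-added groups lay within 2-fold of each other. The values of all 6 libraries chose the genes, so the levels below are a description, and no test on them supports the choice. Genes just past each threshold differ little from those just short of it. Without glucose A, which leaves 1 library to set the glucose level, 139 genes met the rule.

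All 3 groups used N402, a laboratory strain of this filamentous fungus, with 2 shake flask cultures (A and B) and 1 library per culture. In the group called glucose-added here, mycelium pregrown on glucose for 48 h was washed, kept on ball-milled willow for 24 h and then given glucose for 5 h. In the willow group it was kept on willow for 24 h after the same pregrowth. In the glucose group it was taken after 48 h on glucose. Carbon source, washing, transfer and longer culture differ together between the later groups and the glucose group, and no culture was returned to fresh glucose medium without willow, so their effects cannot be told apart. Nor can added glucose and 5 h of further culture, or, in RNA from whole mycelium, fewer hyphae that express a gene and less RNA per hypha.

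Fungi that live on plant material switch genes for wall-degrading enzymes on when sugars released from the wall are sensed, and in Aspergillus the activator XlnR turns on genes for xylan and cellulose degradation. When glucose is present, the repressor CreA shuts such genes down, which is known as carbon catabolite repression. Mycelium moved from glucose to an insoluble substrate also passes through a period with little free sugar, in which genes for scavenging and for the recycling of cell material are commonly switched on.

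Libraries held between 434508 and 775667 reads in genes, which made up 1.46% to 3.15% of all reads, and 1 read was worth 1.22 to 2.61 CPM. The 84 genes took 1.797% and 1.73% of gene reads in the glucose-added libraries and 1.71% and 2.02% in the willow libraries, against 0.424% and 0.409% in the glucose libraries. The share was about the same in the 4 later libraries. Of each gene the rule asks only that the scaled group means lie within 2-fold. The reference table gives a symbol to 1 of the 84 genes, proctase-A, and holds the other 83 by identifier only, so that no function is stated for them.

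Genes of this kind were a minority of those that were higher on willow. The willow part of the rule (at least 15 CPM and 2 times the glucose level in both willow libraries) was met by 872 genes. After glucose addition the mean of 723 of them (82.9%) was under 0.5 of the willow mean, that of 139 (15.9%) was within 2-fold, and that of 10 (1.15%) was over 2 times as high. Of the 139, 84 are members, 20 had a glucose-added library under 15 CPM, and 48 had one under 2 times the glucose level (some had both). The genes with known names lay elsewhere. Of 34 protein-coding genes with a symbol among the 872, 33 were under 0.5 of the willow mean after glucose addition, and proctase-A was the other.

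**Figure D1:**
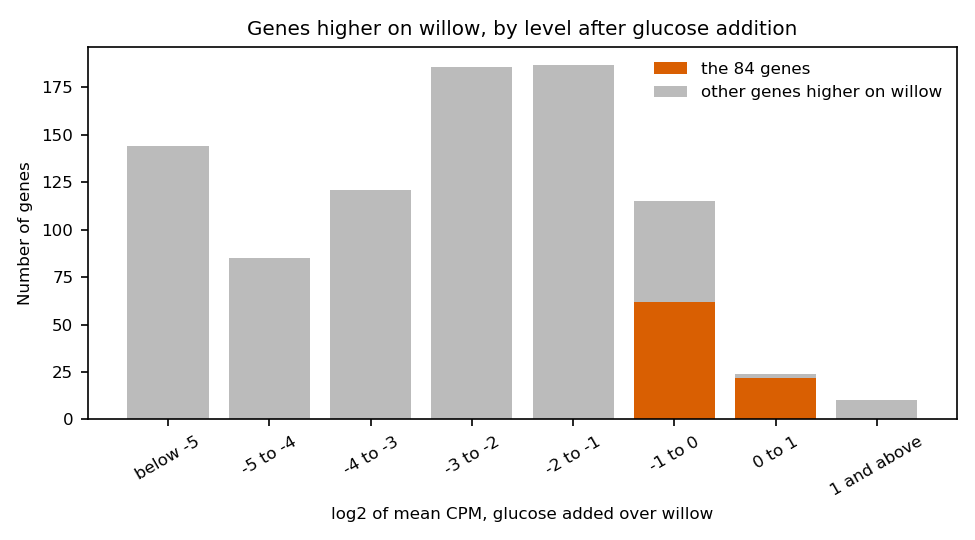
Number of genes higher on willow than on glucose (872 genes), by the log2 ratio of mean CPM in glucose-added over willow cultures (2 libraries each); the 84 genes are in orange. Of the genes, 115 lay in the bin from -1 to 0 and 24 in the bin from 0 to 1, which hold 62 and 22 of the 84, while 187 lay in the bin from -2 to -1 next to the limit.

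Levels of 2 genes of wall degradation are given beside the set. Transcripts of xynB, which encodes a xylanase, stood at 17.4 and 18.2 CPM in glucose-added cultures and 6772 and 10982 CPM in willow cultures, against 4.19 and 21.98 CPM in glucose cultures. Those of xlnR, the activator gene, stood at 48.6 and 34.1 CPM in glucose-added cultures and 260.4 and 272 CPM in willow cultures, against 15.4 and 30.5 CPM in glucose cultures. The mean after glucose addition was 0.00201 of the willow mean for xynB and 0.155 for xlnR, and at least 0.5003 of it for each of the 84 genes. Of the fixed lists of genes by symbol, those for cellulose (5 genes found), xylan (7), pectin and arabinan (18) and galactose and mannan (4) hold no member. Those for starch and inulin (6), regulators of several kinds (8) and glycolysis (5) do not hold one either. Nor do those for two-carbon use (1), fermentation (2), the citric acid cycle (3), glucose oxidase and catalases (2), nitrogen (3), trehalose (2), secretion (5) and amino acid synthesis (5). The lists for chitin and autolysis, cell wall synthesis, conidiation and hydrophobins, and autophagy matched no symbol in the reference table, so markers of sporulating or autolysing hyphae were not looked up. The lists found 82 genes in all, 67 of them with 15 CPM in a library, while members make up 1.22% of the 6912 An genes that reach 15 CPM in a library. At that share, lists of this size may hold none, and nothing is read from their lack of members.

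**Figure D2:**
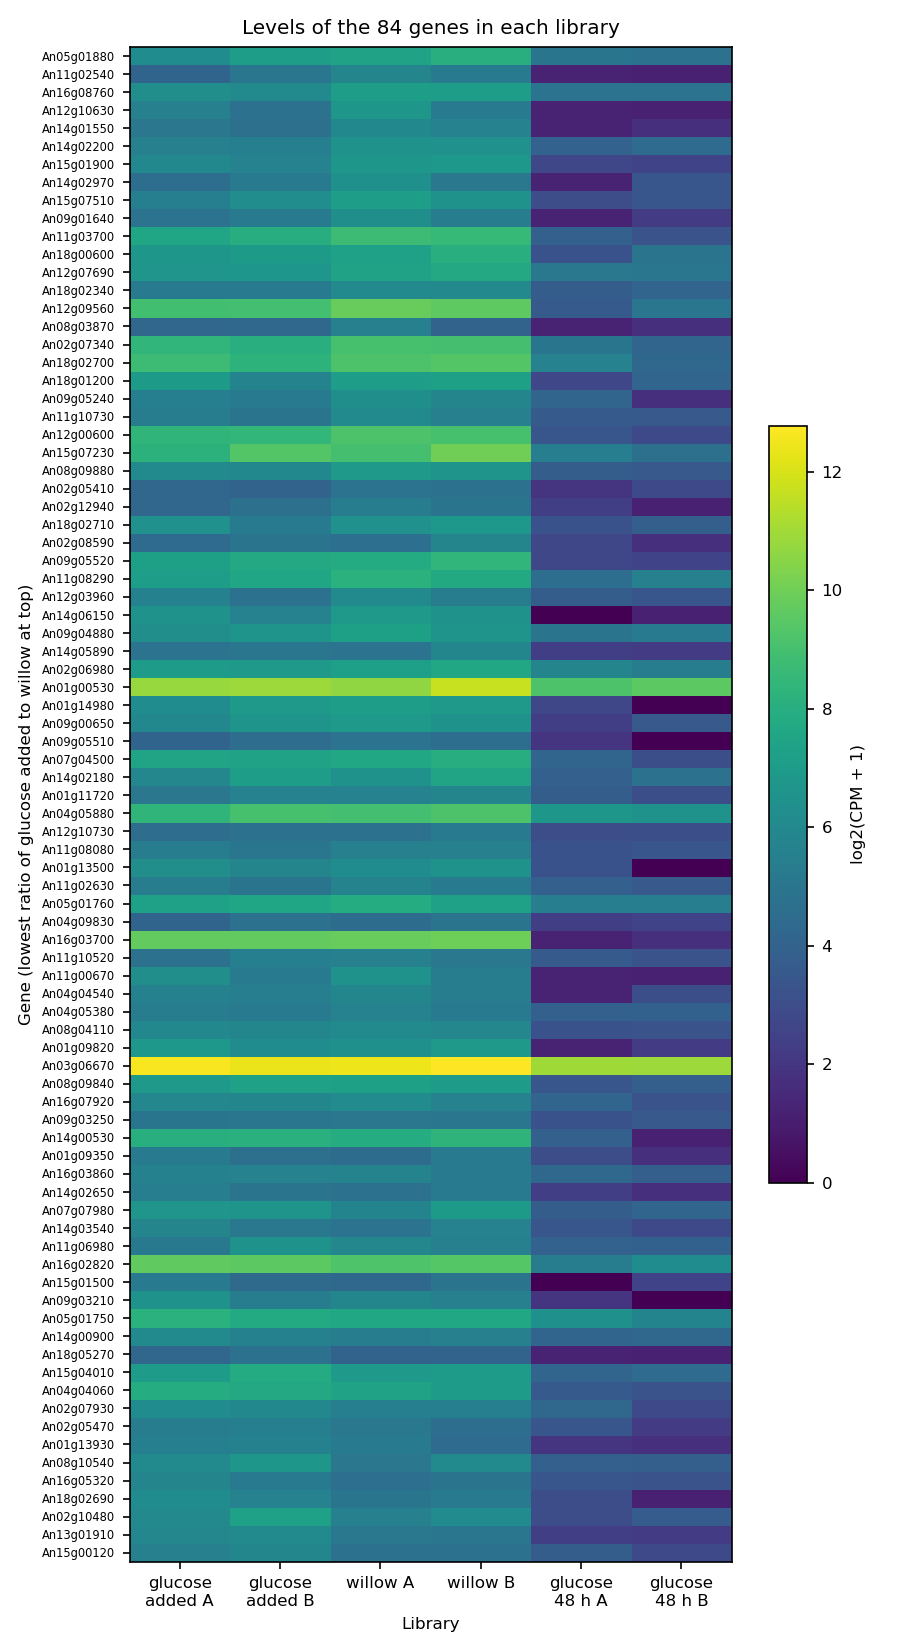
Levels of the 84 genes as log2(CPM + 1), 1 gene per row and 1 library per column (glucose added, willow, glucose 48 h; cultures A and B), ordered by the ratio of glucose-added to willow means, which runs from 0.5003 at the top to 1.97 at the bottom. In every row the 4 libraries on the left are brighter than the 2 glucose libraries on the right.

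Proctase-A (An01g00530), an acid protease that the fungus secretes, was the named gene of the set. It had 1766 and 1911 CPM in glucose-added cultures and 1634 and 3350.4 CPM in willow cultures, against 594 and 749.9 CPM in glucose cultures. The glucose-added mean was 2.74 times and the willow mean 3.71 times the glucose mean, and the glucose-added and willow libraries overlapped, with willow B well above the other 3. Its mean was 1839 ± 103 CPM in glucose-added cultures and 2492 ± 1213 CPM in willow cultures, against 672 ± 110 CPM in glucose cultures (SD, n = 2 each, as for all SDs here). The aspartic protease gene pepA had 143 and 166 CPM in glucose-added cultures and 1662 and 747 CPM in willow cultures, against 9.78 and 17.1 CPM in glucose cultures. Its mean after glucose addition was 0.128 of the willow mean but 11.5 times the glucose mean. The other protease gene found by the list that was high on willow, apsA, was at 0.284 of its willow mean and 0.789 of its glucose mean. The protease list names 17 symbols, the symbol proctase-A not among them, and was matched by symbol only. It found 7 genes, 6 of them with 15 CPM in a library, and none of the 7 is a member. A listed protease that the reference table holds under another name was missed, so this does not show that no listed protease is a member. The symbol pepB was among those not matched. Whether proctase-A is itself a listed gene under another name was not checked.

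An03g06670 was the most abundant member per length, at a mean of 20.1 RPKM (reads scaled to gene length and library size, as deposited, where the library size counts all reads and not only those in genes) over the 4 later libraries, the rank of 109 among all An genes. It had 6405 and 5503 CPM in glucose-added cultures and 5670.4 and 7027 CPM in willow cultures, against 2002 and 1941 CPM in glucose cultures. Unlike most members it was already abundant on glucose, and it took 36.9% and 32.0% of the set's reads in glucose-added libraries and 29.7% and 30.7% in willow libraries, against 53.2% and 51.2% in glucose libraries. Its glucose-added and willow libraries overlapped, with means of 5954 ± 638 CPM in glucose-added cultures and 6349 ± 960 CPM in willow cultures, against 1971 ± 43.4 CPM in glucose cultures. Shares and sums over the set rest in good part on this gene, whose model is 6268 bp long.

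An15g07230 followed, at 19.9 RPKM, with 292 and 649 CPM in glucose-added cultures and 513 and 1035 CPM in willow cultures, against 43.3 and 25.6 CPM in glucose cultures. Culture B was higher than culture A in both later groups, so that the groups overlapped. Proctase-A, at 15.2 RPKM, An16g03700, at 12.9 RPKM, and An12g09560, at 8.79 RPKM, came next. An12g09560 had 483 and 490.3 CPM in glucose-added cultures and 909 and 789 CPM in willow cultures, against 11.2 and 31.8 CPM in glucose cultures. Both glucose-added libraries of An12g09560 lay below both willow libraries, yet at least 15.2 times above the higher glucose library. Of the 84 genes, the median was 1.02 RPKM and the lowest 0.195 RPKM. Their ranks among the 14114 An genes ran from 109 to 6031, with a median of 2213.5, and 6912 An genes reach 15 CPM in a library. RPKM is scaled to all reads, so a value near the median of 1.02 is not a low rank. The member with the lowest RPKM, however, held the rank of 6031.

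The widest gap to glucose was that of An16g03700. It had 847 and 838 CPM in glucose-added cultures and 911 and 1006 CPM in willow cultures, against 1.397 and 2.44 CPM in glucose cultures. The glucose values rest on 1 and 2 reads, and the ratio of the pooled reads was 432 for glucose-added over glucose (exact 95% counting interval 147 to 2097) and 487 for willow over glucose (166 to 2367). Its cultures hardly differed within the later groups, and the glucose-added libraries lay below the willow libraries by a little, at a ratio of means of 0.879. Per length it ranked 168 among all An genes over the 4 later libraries, at 12.9 RPKM.

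A further group had few or no reads on glucose but moderate levels later. An14g06150, a long model of 4911 bp, had 94.7 and 49.9 CPM in glucose-added cultures and 120.2 and 88.9 CPM in willow cultures, against 0 and 1.22 CPM in glucose cultures, that is 1 read over both glucose libraries. The ratio of pooled reads was 121 for glucose-added over glucose (95% counting interval 21.2 to 4827) and 164 for willow over glucose (28.7 to 6529). In all, 10 of the 84 genes had 1 to 3 reads over both glucose libraries, 6 had none in 1 of them and none lacked a read in both. Means of the 10 ran from 17.8 to 842 CPM in glucose-added cultures and from 15.9 to 959 CPM in willow cultures. Fold differences from glucose are known only within a wide range for these 10 genes, since so few reads set the glucose level.

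An12g00600 had 326 and 352 CPM in glucose-added cultures and 591 and 528 CPM in willow cultures, against 9.78 and 6.11 CPM in glucose cultures. Its glucose-added libraries were both lower than its willow libraries, at a ratio of means of 0.606, and were each at least 33.4 times the higher glucose library. An09g05520 had 153 and 211 CPM in glucose-added cultures and 232 and 335 CPM in willow cultures, against 5.59 and 4.89 CPM in glucose cultures, and An14g00530 had 268 and 275 CPM in glucose-added cultures and 242 and 314 CPM in willow cultures, against 13.97 and 1.22 CPM in glucose cultures. The ratio of glucose-added to willow means was 0.643 for An09g05520, with no overlap, and 0.976 for An14g00530, with overlap, and the difference between these ratios was not tested.

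An11g00670 had 79.7 and 38.6 CPM in glucose-added cultures and 90.1 and 41.8 CPM in willow cultures, against 1.397 and 1.22 CPM in glucose cultures, and An01g09820 had 113 and 72.6 CPM in glucose-added cultures and 84.1 and 118 CPM in willow cultures, against 1.397 and 3.66 CPM in glucose cultures. In both, the glucose-added and willow libraries overlapped. An12g10630 had 46.1 and 27.2 CPM in glucose-added cultures and 108 and 36.6 CPM in willow cultures, against 1.397 and 1.22 CPM in glucose cultures, and An09g03210 had 90.96 and 40.9 CPM in glucose-added cultures and 58.1 and 47.04 CPM in willow cultures, against 2.79 and 0 CPM in glucose cultures. In both, the later groups overlapped and the glucose level rests on 2 reads over both libraries.

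**Figure D3:**
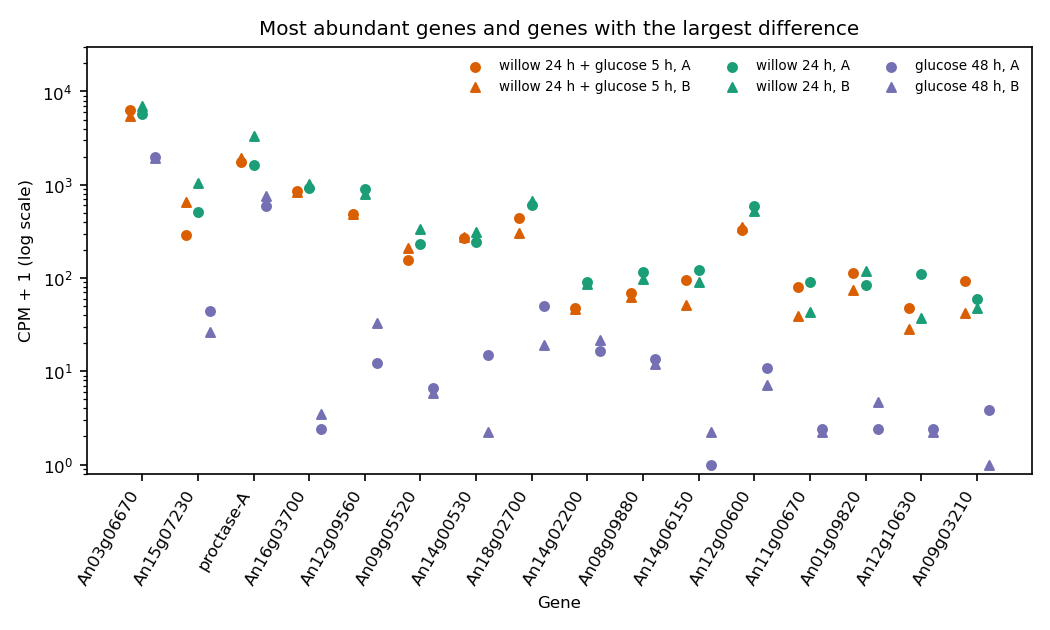
CPM + 1 on a log scale in each of the 6 libraries (circles culture A, triangles culture B) for the 10 most abundant of the 84 genes by RPKM and the 10 with the largest ratio of the lowest later library to the higher glucose library, 16 genes in all. An16g03700 has at least 838 CPM in all 4 later libraries and 1.40 and 2.44 CPM on glucose.

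Among the other abundant genes, An18g02700 had 439 and 306 CPM in glucose-added cultures and 599 and 666 CPM in willow cultures, against 48.9 and 18.3 CPM in glucose cultures. An14g02200, whose model is only 207 bp long, had 46.1 and 45.4 CPM in glucose-added cultures and 90.1 and 86.2 CPM in willow cultures, against 15.4 and 20.8 CPM in glucose cultures. An08g09880, with a model of 276 bp, had 67.3 and 61.3 CPM in glucose-added cultures and 114 and 96.7 CPM in willow cultures, against 12.6 and 10.99 CPM in glucose cultures. In all 3 both glucose-added libraries lay below both willow libraries. Over the 84 genes the median model length was 1497 bp, against 1635 bp over the 3511 other An genes with at least 15 CPM in the 4 later libraries.

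The size of the difference from glucose varied widely. In 16 genes every later library was over 10 times the higher glucose library, in 36 it was 3 to 10 times, and in 32 it was 2 to 3 times. In 54 of the 84 genes the higher glucose library was itself under 15 CPM. The 51 genes not named by the rules for single genes had means of 21.2 to 784 CPM (median 58.1) in glucose-added cultures and 23.4 to 651 CPM (median 58.3) in willow cultures, against 1.92 to 99.1 CPM (median 9.69) in glucose cultures.

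Within the limits that the rule sets, most members had a lower mean after glucose addition than on willow. The ratio of glucose-added to willow means had a median of 0.788 and was below 1 in 62 genes and above 1 in 22. With total-count scaling these numbers were 49 and 35, with upper quartile scaling 61 and 23, and with RLE scaling 62 and 22. In 20 genes the means differed by at most 1.2-fold, and in 20 the ratio was under 0.6, close to the limit of 0.5. In 32 genes both glucose-added libraries were below both willow libraries, against 31.8% of the 6181 genes tested, and in 12 both were above, against 37.1%. In the remaining 40 the libraries overlapped. The rule held both groups within 2-fold of each other, so these counts describe the set and nothing is read from them.

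Of the 12 genes with both glucose-added libraries above both willow libraries, An16g02820 was the most abundant and is named here after its values were seen. It had 819 and 749 CPM in glucose-added cultures and 613 and 689.9 CPM in willow cultures, against 40.5 and 74.5 CPM in glucose cultures. An04g04060, another of the 12 named after its values were seen, had 239 and 207 CPM in glucose-added cultures and 164 and 133 CPM in willow cultures, against 11.2 and 8.55 CPM in glucose cultures. Over these 12 genes the ratio of means ran from 1.203 to 1.97, with a median of 1.52. In the 32 genes with the opposite order it ran from 0.5003 to 0.879, with a median of 0.591.

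Tests across all genes used the contrasts that chose the members, so nothing is read from these counts. All 84 genes passed the count filter. By the quasi-likelihood test of edgeR, adjusted over 6181 genes after Benjamini and Hochberg, 79 of the 84 were higher in glucose-added than in glucose cultures at an adjusted p under 0.05, where 10.0% of all genes were called higher. In willow against glucose cultures 83 were called higher, where 17.6% of all genes were. The exception was An15g00120, with 46.1 and 56.8 CPM in glucose-added cultures and 26.04 and 26.1 CPM in willow cultures, against 12.6 and 6.11 CPM in glucose cultures. The 5 genes not called in glucose-added against glucose cultures were An18g02340, An04g05380, An12g10730, An09g03250 and An02g05410, named here after their values were seen. With at least 50 counts required in 2 libraries, 33 members were tested and all 33 were called in both comparisons. Of the 2743 genes then tested, 554 were called higher in willow and 372 in glucose-added cultures, each over glucose.

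Between glucose-added and willow cultures, 7 of the 84 genes were called and all 7 were lower, where 20.5% of all genes were called lower and 17.2% higher. The 7 were An12g09560, An12g00600, An11g03700, An05g01880, An02g07340, An12g07690 and An16g08760, named here after their values were seen. DESeq2 called 2 of the 84, where it called 756 of 6181 genes higher and 1045 lower. With at least 50 counts in 2 libraries edgeR called 11 of 33 members tested, where 596 of 2743 genes were called higher and 701 lower. With RLE scaling edgeR called 10 of the 84, beside 1016 genes higher and 1307 lower. With total-count scaling it called 0, with 8 at an unadjusted p under 0.05, beside 1489 genes called higher and 997 lower. Without glucose-added A 2 were called, without glucose-added B 3 and without willow A 4. The median log2 fold change of the members was -0.45, against 0.04 over all genes tested. A gene that missed the threshold is not thereby shown to have the same level in both groups.

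Replicate cultures differed by a median of 1.34-fold in glucose-added, 1.30-fold in willow and 1.37-fold in glucose cultures over the 84 genes, and by 1.29-fold, 1.31-fold and 1.30-fold over the 3511 other An genes with 15 CPM in the 4 later libraries. A ratio of 1.3 between 2 libraries is of the size of this spread.

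The position of the genes was not used to choose them. In the gene order of the reference table, 7 of the 84 genes (8.33%) had another member as immediate neighbour, against 80 of 6812 other An genes with 15 CPM in a library (1.17%). No chance test was made of this difference. The 7 genes form 3 runs. Where 1 gene was allowed between members, another run joined An14g02180 and An14g02200, which made 9 genes.

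The longest run is An18g02690 to An18g02710. Its first gene had 73.5 and 49.9 CPM in glucose-added cultures and 30.04 and 36.6 CPM in willow cultures, against 6.99 and 1.22 CPM in glucose cultures, so that both glucose-added libraries lay above both willow libraries. The middle gene, An18g02700, is described above and was more abundant per length, at 6.32 RPKM against 0.654 RPKM for An18g02690 and 0.574 RPKM for An18g02710. An18g02710 had 85.98 and 38.6 CPM in glucose-added cultures and 86.1 and 109.8 CPM in willow cultures, against 8.38 and 13.4 CPM in glucose cultures. The next gene on one side and the next 2 on the other were also higher on willow than on glucose in both cultures but did not meet the rule. An18g02680 had 118 and 114 CPM in glucose-added cultures and 110.2 and 120.2 CPM in willow cultures, against 47.5 and 59.8 CPM in glucose cultures, and its lowest later library was under 2 times the higher glucose library. Beyond it, An18g02670 had 0 and 0 CPM in glucose-added cultures and 4.01 and 0 CPM in willow cultures, against 0 and 0 CPM in glucose cultures. An18g02720 had 279 and 123 CPM in glucose-added cultures and 511 and 256 CPM in willow cultures, against 103 and 72.1 CPM in glucose cultures, and An18g02730 had 26.2 and 45.4 CPM in glucose-added cultures and 188 and 264 CPM in willow cultures, against 5.59 and 2.44 CPM in glucose cultures. In the last of these the level after glucose addition was 0.158 of that on willow, and the ratio of glucose-added to willow means therefore varied between adjacent genes.

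The run of An05g01750 and An05g01760 had other neighbours. An05g01750 had 284 and 225 CPM in glucose-added cultures and 192 and 199 CPM in willow cultures, against 85.2 and 53.7 CPM in glucose cultures, and An05g01760 had 158 and 184 CPM in glucose-added cultures and 242 and 159 CPM in willow cultures, against 43.3 and 42.7 CPM in glucose cultures. Both glucose-added libraries of An05g01750 lay above both willow libraries, at a ratio of means of 1.302, and those of An05g01760 overlapped. Next to them An05g01740 had 72.3 and 97.6 CPM in glucose-added cultures and 2.003 and 5.23 CPM in willow cultures, against 41.9 and 26.9 CPM in glucose cultures, and An05g01730 had 1.246 and 2.27 CPM in glucose-added cultures and 657 and 468 CPM in willow cultures, against 0 and 4.89 CPM in glucose cultures. On this side of the 2 members therefore lay a gene that was low on willow alone and a gene that was high on willow alone. On the other side, An05g01770 had 18.7 and 20.4 CPM in glucose-added cultures and 12.02 and 18.3 CPM in willow cultures, against 20.96 and 10.99 CPM in glucose cultures, and An05g01780 had no read in any library. In the third run, An09g05510 had 16.2 and 22.7 CPM in glucose-added cultures and 28.04 and 23.5 CPM in willow cultures, against 2.79 and 0 CPM in glucose cultures, beside An09g05520, and the pair stood at 0.666 RPKM (An09g05510) and 7.16 RPKM (An09g05520). Its glucose-added and willow values rest on 9 to 14 reads per library, and the neighbours An09g05500 and An09g05530 stayed under 15 CPM in all libraries.

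**Figure D4:**
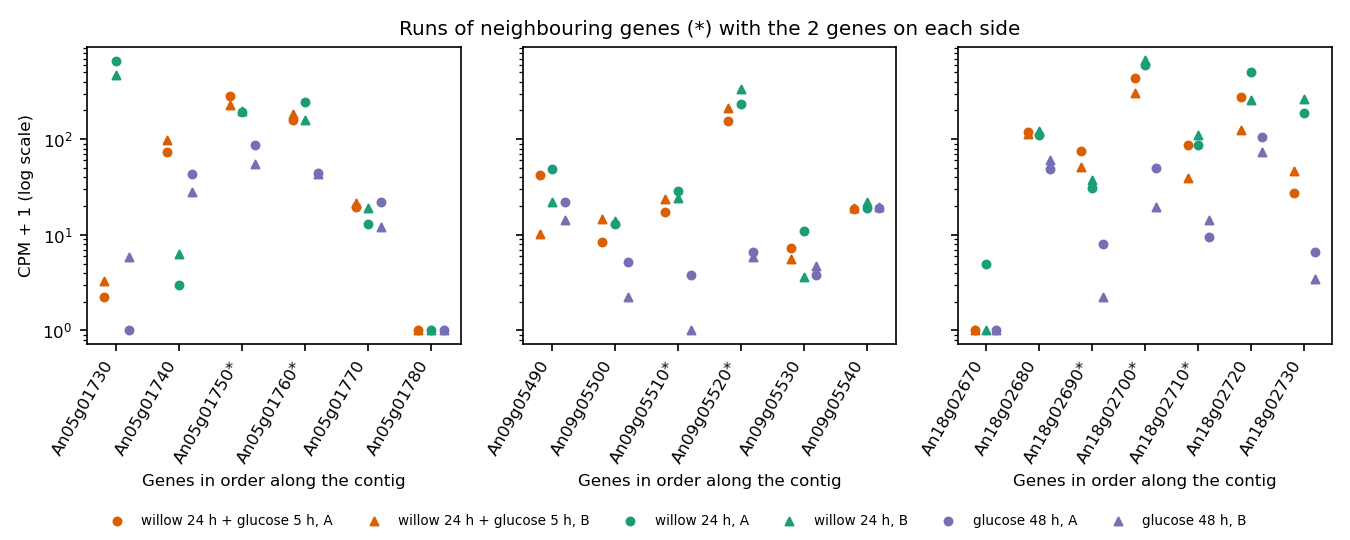
CPM + 1 on a log scale in each library (circles culture A, triangles culture B) for the 3 runs of adjacent members (asterisks) and the 2 genes on each side, in gene order. An18g02680 to An18g02730 are all higher on willow than on glucose, while An05g01740 has 2.003 and 5.23 CPM on willow and An05g01730 has 1.246 and 2.27 CPM after glucose addition.

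Genes next to a member that were no members themselves were more often high in the later libraries than other An genes, though most were not. Of 159 such neighbours, 80 had 15 CPM in a library. The willow part of the rule was met by 19 of the 80 (23.8%), against 769 of 6748 other An genes (11.4%). Of these 19, 8 (10.0% of the 80) had at least 15 CPM and 2 times the glucose level in all 4 later libraries, against 77 of the 6748 (1.14%). These 8 failed the rule only because their willow and glucose-added means differed by more than 2-fold. The most abundant member without many glucose reads, An16g03700, lies next to one of them, An16g03690, which had 73.5 and 63.6 CPM in glucose-added cultures and 132 and 167 CPM in willow cultures, against 1.397 and 1.22 CPM in glucose cultures. On glucose An16g03690 had 1 read in each library. The mean after glucose addition was 0.458 of the willow mean for An16g03690 and 0.879 for An16g03700.

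Similar pairs were An14g06150 with An14g06160, and An15g07230 with An15g07240. An14g06160 had 63.5 and 79.5 CPM in glucose-added cultures and 274 and 635 CPM in willow cultures, against 5.59 and 12.2 CPM in glucose cultures, and An15g07240 had 22.4 and 27.2 CPM in glucose-added cultures and 188 and 729 CPM in willow cultures, against 2.79 and 3.66 CPM in glucose cultures. After glucose addition An14g06160 stood at 0.157 and An15g07240 at 0.0541 of the willow mean, while the members beside them stood at 0.692 (An14g06150) and 0.608 (An15g07230). An08g10530, next to An08g10540, had 559 and 672 CPM in glucose-added cultures and 250.4 and 355 CPM in willow cultures, against 55.9 and 109.9 CPM in glucose cultures, and was the single neighbour of the 8 with a higher mean after glucose addition, at a ratio of 2.03. An08g10540 itself had 67.3 and 107 CPM in glucose-added cultures and 32.05 and 67.9 CPM in willow cultures, against 13.97 and 13.4 CPM in glucose cultures, so both genes of this pair were higher in the glucose-added mean. The other 4 neighbours were An02g10470, An08g04120, An08g09850 and An11g02550. Whether adjacent models share reads was not tested, and whether the authors' counting used the strand of a read is not given in the sources used here, so values of overlapping neighbours are uncertain.

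**Figure D5:**
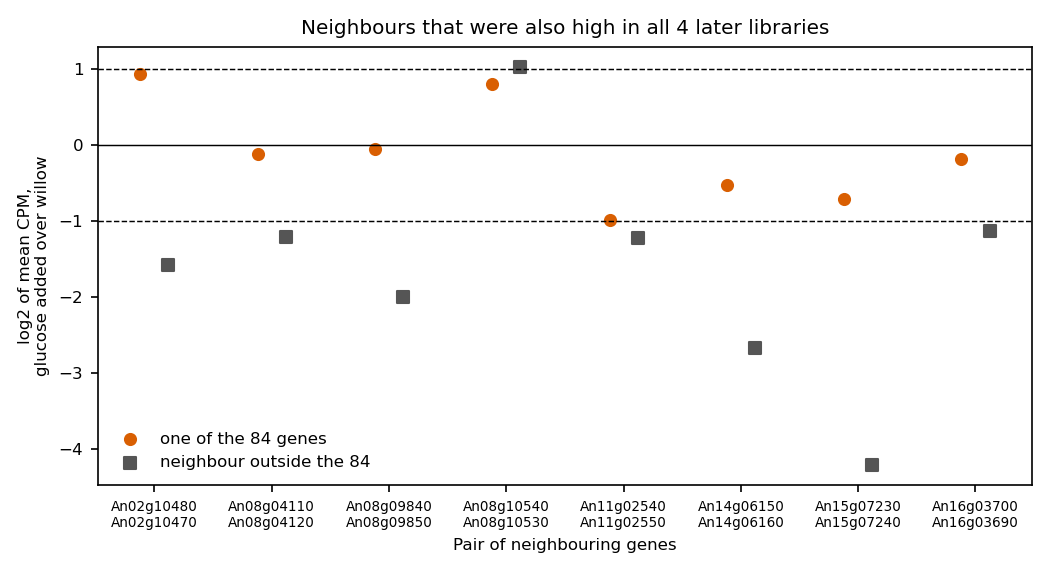
Log2 ratio of mean CPM in glucose-added over willow cultures (2 libraries each) for 8 of the 84 genes (circles) and the adjacent gene outside the set that was also at least 2 times its glucose level in all 4 later libraries (squares). Dashed lines mark the 2-fold limit of the rule; 7 of the 8 neighbours lie below -1 and An08g10530 lies just above 1.

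The genes nearest to the thresholds show how sharp these are. At the floor of 15 CPM, An08g03870 and An18g05270 were just inside, each with 15.7 CPM in its lowest later library, followed by An02g05410 with 15.9 CPM and An04g09830 and An09g05510 with 16.2 CPM each. Just outside were An06g00490 with 13.1 CPM, An08g07780 with 11.4 CPM, and An01g06150, An07g04320 and An15g02160 with 11.2 CPM each. In these 10 genes the lowest later library held 5 to 13 reads, so a few reads decide on membership.

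At the limit of 2 times glucose, the lowest ratios inside were 2.07 for An15g00120, 2.11 for An09g04880, An11g02630 and An18g02340, and 2.16 for An16g03860. Just outside were An19g00210 at 1.996, An15g04040 at 1.99, An11g06240 and An16g08980 at 1.98 and An11g06900 at 1.95. An19g00210 had 8517 and 11908 CPM in glucose-added cultures and 7772 and 8201 CPM in willow cultures, against 3702 and 3893 CPM in glucose cultures. It missed the rule by 1 library of willow, A, at 7772 CPM against 3893 CPM in glucose B. At the limit of 2-fold between means, An05g01880 (ratio 0.5003), An11g02540 (0.504), An16g08760 (0.506), An12g10630 (0.507) and An15g00120 (1.97) were just inside. An02g05120 (0.497), An12g10190 (0.493), An07g03525 (0.485), An09g06740 (0.483) and An08g10530 (2.03) were just outside. An02g05120 had 131 and 179 CPM in glucose-added cultures and 294 and 329 CPM in willow cultures, against 5.59 and 6.11 CPM in glucose cultures.

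Among genes without an An identifier, 3 met the same thresholds and were not counted. The most abundant of them, listed under the model name estExt_C_50050, had 157 and 249.7 CPM in glucose-added cultures and 196 and 154 CPM in willow cultures, against 40.5 and 42.7 CPM in glucose cultures.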

How the data were processed

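RNA was measured in 6 shake flask cultures of Aspergillus niger N402, 2 for each culture condition that the labels name. Per the labels' protocols, total RNA was depleted of ribosomal RNA and sequenced on a SOLiD instrument with paired reads of 50 and 35 bp. The deposited counts are whole numbers of reads per gene, made by the authors, and the submitters' processing notes name HTSeq with no version. The aligner and the strand setting were not given in the sources used here. Deposited RPKM values were scaled by the authors to gene length and to all entries of a library, since the lengths this implies were whole numbers (within 0.01 bp, values with over 20 counts) in 100% of cases, against 2.01% if only reads in genes are summed.

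The 5 entries per library that name no gene (96.9% to 98.5% of reads, with multiply aligned reads at 58.4% to 75.7%) entered neither library sizes nor tests. Copies of nearly the same sequence may lose reads to the multiply aligned entry, so values of gene families are uncertain. Of 14114 genes with an An identifier, 14069 are in the reference table (RefSeq, assembly ASM285v2), which was used for symbols and gene order only because the builds differ.

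The 84 members, the lists and the tests were chosen with earlier results of these data known. CPM values are counts scaled by TMM factors over all genes. The fit (edgeR 4.0.16 in R 4.3.3, quasi-likelihood F test, two-sided, adjusted after Benjamini and Hochberg, threshold 0.05) took all 3 groups, with 3 residual degrees of freedom, and the default filter of filterByExpr (at least 10 counts, and 15 in total), which passed 6181 genes and removed 9250. DESeq2 1.42.0 was an alternative. The common biological coefficient of variation was 25.8%, and replicates differed by more than sampling noise (chi-square divided by its degrees of freedom, 6.81 to 11.5). Cultures A and B are duplicates by the series' design text, and p-values measure only the spread between them. Intervals cover counting error only. Genes named are the member with a symbol, the 10 with the highest RPKM, the 10 with the largest ratio to glucose, the 5 nearest on either side of each threshold and those in runs of neighbours. Neighbours outside the set, list genes and all others were named after their values were seen. Promoter motifs, protein features and similar proteins were not analysed here.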

Additional observations from a re-analysis of the deposited data

How the results depend on the processing

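The rule gave 52 genes with at least 3 times the glucose level and 45 with group means within 1.5-fold. Leaving out 1 library gave 93 to 139 genes, the most without glucose A. All 84 were kept without glucose A or glucose B, which the rule all but fixes. Apart from changes in scaling, a removed glucose library cannot raise the higher glucose value. Leaving out a library of any group also takes away a condition that a gene must meet. Of the 84, 76 were kept without willow A, 70 without willow B, 71 without glucose-added A and 73 without glucose-added B. Other scalings gave 84 (RLE, 76 of them among the 84), 87 (upper quartile, 83 shared) and 74 genes (total count, 65 shared), and floors of 5 and 30 CPM gave 112 and 57. Ratios taken on RPKM, an alternative chosen after seeing the data, gave 56 genes, 42 of them shared, which is within 1.5 times the count but holds 50% of the 84. RPKM is scaled to all reads, so its ratios between libraries also carry differences in the share of reads in genes. That share was 2.97% and 2.99% in glucose, 2.32% and 1.46% in willow and 3.15% and 1.59% in glucose-added libraries.

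With at least 50 counts in 2 libraries, 33 members were tested, and 33 were called higher in willow over glucose and 33 in glucose-added over glucose, since fewer genes entered. Every other alternative run for these 2 comparisons stayed within 1.5 times the counts of 83 and 79. With all libraries kept and all 84 members tested, the counts were 78 to 84 and 72 to 81. Leaving out 1 library gave the lowest counts with all 84 tested, most so in glucose-added over glucose. Only 57 members have at least 30 CPM, an alternative chosen after seeing the data, and 57 and 55 of these were called. Between glucose-added and willow cultures the 7 calls became 3 with upper quartile scaling, 0 with total-count scaling, 1 without a count filter, 11 with at least 50 counts in 2 libraries and 2 with DESeq2, and leaving out 1 library gave 2 to 8. The cause was not tested. The 11 were of 33 members tested. Over all genes, upper quartile scaling called 1215 higher and 1160 lower of 6181. Without a count filter 1192 were higher and 1296 lower of 11711. With the letter A or B as a term (replicate block) 12 members were called, beside 1117 of 6181 genes higher and 1315 lower. With this term 82 and 78 members were called higher over glucose. Deviations of A from B correlated at -0.0135 (willow with glucose), 0.120 (glucose-added with glucose) and 0.168 (glucose-added with willow). Counting noise at few reads per gene lowers such values, so they do not show that the cultures were unpaired. The labels do not say whether a letter links cultures across groups, and the main fit treated the cultures as unpaired. The median log2 fold change of the members between these groups stayed negative in every scaling and with any 1 library left out (-0.49 to -0.16). Total-count scaling moved the median of all genes by 0.30 (glucose-added over willow), -0.43 (willow over glucose) and -0.14 (glucose-added over glucose).

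The alternatives on protein hydropathy and on protein similarity were not run, since no protein table was used here. Depth limits these results: 1 read was 1.22 to 2.61 CPM, so members near the floor of 15 CPM and ratios to glucose levels of a few reads are imprecise.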
